A study of Mus musculus with 6 samples.

Results

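Olfactory receptor genes, which serve the sense of smell, were examined as a group in sorted regulatory T cells (Tregs). The members were the 1227 transcript clusters, of 65956 on the array, whose annotation gives a single gene symbol beginning with Olfr and a digit. They carried 1224 different symbols, since Olfr446, Olfr804 and Olfr1502 had 2 clusters each, and 141 of the clusters bore a symbol marked as a pseudogene. The RNA came from CD4+CD25+Nrp1+ splenic Tregs of untreated male B6 mice aged 10 to 12 weeks, with 3 arrays labelled CREB-KO and 3 labelled CREB-WT, each from a different animal. CREB-KO mice were Foxp3-IRES-Cre crossed to CREB-flox, so that Cre, and with it the deletion of CREB, is confined to cells that express Foxp3. The CREB-WT mice, per the methods, carried the floxed CREB alleles without Cre, so that the Cre allele and the loss of CREB cannot be told apart. Values are RMA signals, 1 per cluster and array, taken to be on the log2 scale, which RMA gives but the sources do not state for these values, so that every fold rests on it. A signal depends on the probes of its cluster, so signals of different clusters give an order on the array and not amounts of RNA.

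Olfactory receptors are G protein-coupled receptors with which sensory neurons of the nose detect odorants. Each mature neuron expresses 1 allele of 1 receptor gene and holds the others in silent chromatin. An occupied receptor activates the G protein subunit encoded by Gnal, then the adenylyl cyclase encoded by Adcy3, and the cAMP formed opens the channel that contains the Cnga2 subunit. The receptor genes lie in clusters on many chromosomes, often with close relatives side by side. Class I receptors resemble those of fish, class II receptors are the larger group of land vertebrates, and the MOR numbers used here group mouse receptors by sequence.

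The stretch before the start of the annotated gene is shown for the receptors on which the results turn: Olfr1346 and Olfr1055, which had the highest signals, Olfr99, which had a high signal and the largest difference between groups, and Olfr173 and Olfr175, neighbours that were both higher on the CREB-KO arrays. The sequences are from RefSeq (GRCm38.p6) and run from 250 bases before to 50 bases after the gene start, 5′ to 3′ on the gene's strand. Olfr1346 lies on the plus strand at chr7:6473862-6474161. The others lie on the minus strand, with Olfr1055 at chr2:86347715-86348014, Olfr99 at chr17:37280369-37280668, Olfr173 at chr16:58797893-58798192 and Olfr175 at chr16:58826712-58827011. Capitals mark an ATG at the gene start and matches, on either strand, to TATAAA, which the general factor TBP binds in core promoters, to TAATTA, a core shared by homeodomain factors such as Lhx2, and to CCCNNGGG, a core bound by EBF factors.
Olfr1346: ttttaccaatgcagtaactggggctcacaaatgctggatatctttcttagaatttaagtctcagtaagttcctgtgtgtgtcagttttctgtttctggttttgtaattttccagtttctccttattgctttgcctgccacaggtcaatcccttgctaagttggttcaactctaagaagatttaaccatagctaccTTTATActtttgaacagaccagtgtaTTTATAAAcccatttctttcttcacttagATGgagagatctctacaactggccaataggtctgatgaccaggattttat
Olfr1055: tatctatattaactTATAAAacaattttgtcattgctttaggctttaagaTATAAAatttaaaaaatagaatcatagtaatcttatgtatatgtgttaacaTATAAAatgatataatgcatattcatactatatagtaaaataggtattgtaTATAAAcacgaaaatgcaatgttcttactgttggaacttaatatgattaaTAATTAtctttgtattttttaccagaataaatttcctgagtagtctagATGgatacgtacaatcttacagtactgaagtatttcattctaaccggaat
Olfr99: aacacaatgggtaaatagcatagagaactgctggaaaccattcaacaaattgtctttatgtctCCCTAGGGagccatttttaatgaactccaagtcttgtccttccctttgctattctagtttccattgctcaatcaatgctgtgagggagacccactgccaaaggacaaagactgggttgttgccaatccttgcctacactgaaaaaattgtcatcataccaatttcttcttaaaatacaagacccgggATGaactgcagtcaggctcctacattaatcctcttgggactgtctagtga
Olfr173: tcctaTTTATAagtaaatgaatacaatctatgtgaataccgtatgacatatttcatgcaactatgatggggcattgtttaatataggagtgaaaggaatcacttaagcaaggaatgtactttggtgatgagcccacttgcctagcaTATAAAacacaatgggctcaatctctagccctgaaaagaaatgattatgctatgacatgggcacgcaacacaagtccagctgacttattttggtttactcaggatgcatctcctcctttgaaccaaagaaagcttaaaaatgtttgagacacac
Olfr175: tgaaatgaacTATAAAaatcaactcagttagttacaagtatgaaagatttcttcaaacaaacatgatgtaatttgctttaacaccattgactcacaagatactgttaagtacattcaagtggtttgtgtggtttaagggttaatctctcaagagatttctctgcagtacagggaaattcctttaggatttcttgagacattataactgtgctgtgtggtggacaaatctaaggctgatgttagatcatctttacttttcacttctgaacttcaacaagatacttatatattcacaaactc

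Of the members, 920 had such a window. An ATG stood at the gene start in 73.0% of 921 receptor windows, against 5.83% of all 32851 windows, so most receptor models begin at the coding start and the window need not hold the promoter. That was the case for Olfr1346, Olfr1055 and Olfr99, but not for Olfr173 or Olfr175. Receptor windows had a median GC content of 35.0%, against 52.7% for all windows. TATAAA was found in 41.4% of receptor windows and in 13.6% of all windows, and TAATTA in 18.4% and 5.29%. The opposite order held for CCCNNGGG, with 2.93% and 13.7%. The cAMP response element to which CREB binds, TGACGTCA, was found in 1 receptor window (0.109%) and in 1.79% of all windows, and TGACG, which is contained in it, in 5.75% and 20.8%. None of the windows printed above held TGACG, which says only that these letters are not in these windows. These shares describe the sequences and were not related to the array values. Aligned pair by pair, the printed windows were 48.9% to 54.4% identical, while Olfr172 and Olfr173, neighbours on chromosome 16, were 63.0% identical.

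Tregs were the labelled cell type, and 9 of 9 measured Treg and T cell markers lay above the array median on all 6 arrays, with Cd3e at 17.2 and Ikzf2 at 15.5 on average. Of 6 markers of olfactory sensory neurons, 3 lay above the array median on all 6 arrays, namely Adcy3 at 6.91, Gng13, a G protein subunit, at 5.74 and Gnal at 4.96 on average. Omp, the olfactory marker protein, averaged 4.27, Cnga2 3.63 and Stoml3 3.41. Any 2 arrays correlated at 0.980 to 0.988 over all clusters. Creb1, the targeted gene, had signals of 14.10, 14.39 and 14.79 on the arrays labelled CREB-KO, against 13.30, 13.94 and 13.34 on those labelled CREB-WT. The difference was 0.90 ± 0.25 (SE; unadjusted p = 0.0101, adjusted p = 0.814 in limma), which is past both thresholds the study used for regulated transcripts, a fold of at least 1.5 and an unadjusted p under 0.05, as higher in CREB-KO. This goes against the labels. Which of its probes lie in the deleted part is unknown here, and probes outside it would not report the deletion, so every direction below is that between arrays as labelled.

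The receptors lay near the bottom of the signal range on every array. Their median was 4.07, 4.13 and 4.14 on the CREB-KO arrays, against 4.04, 4.01 and 3.97 on the CREB-WT arrays. The 5th to 95th percentiles of the receptors ran from 3.27 to 5.27 at the widest in CREB-KO and from 3.24 to 5.10 in CREB-WT. Over all clusters the 95th percentile lay between 11.9 and 12.1. Of 29411 other clusters with a single symbol, 45.0% to 45.2% on the CREB-KO and 46.5% to 46.9% on the CREB-WT arrays lay above the 95th percentile of the receptors of that array.

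**Figure D1:**
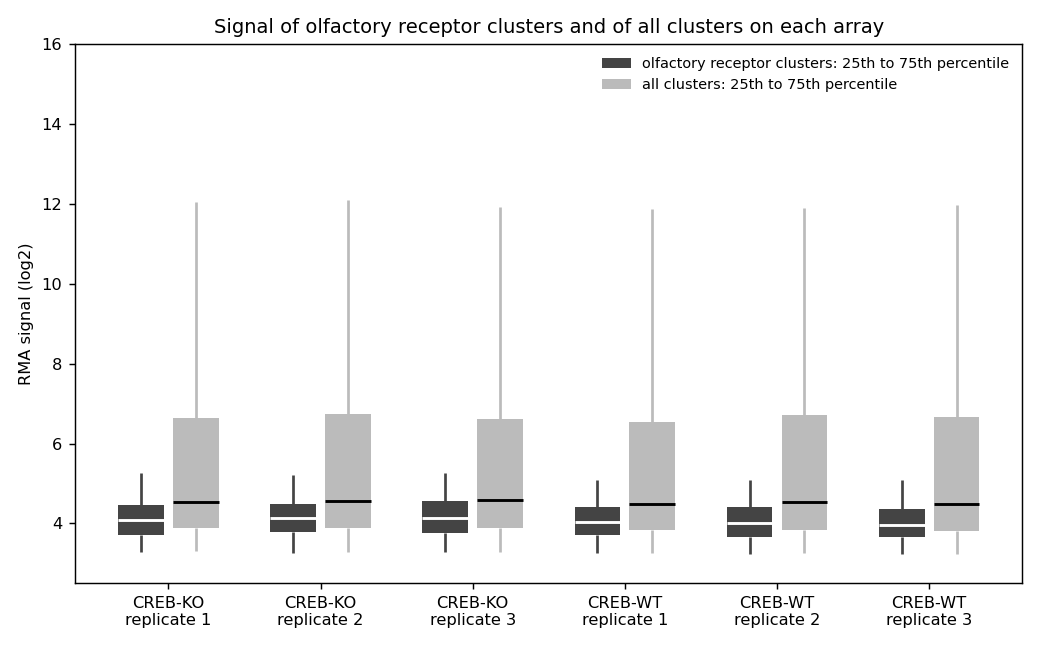
RMA signal (log2) of the 1227 olfactory receptor clusters (dark) and of all 65956 clusters (light) on each array, CREB-KO to the left and CREB-WT to the right; boxes span the 25th to 75th percentile, thin lines the 5th to 95th, and the bar in each box is the median. The receptors form a narrow low band on all 6 arrays, with medians between 3.97 and 4.14.

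The receptor median was higher on every CREB-KO array than on any CREB-WT array. Its mean was 4.12 ± 0.035 in CREB-KO and 4.004 ± 0.035 in CREB-WT (SD, n = 3 each), a difference of 0.11, which exceeded the spread between replicates. All clusters moved the same way but less, with medians of 4.55, 4.56 and 4.58 on the CREB-KO arrays, against 4.48, 4.53 and 4.49 on the CREB-WT arrays, which is 0.063 apart on average. Relative to the median of all clusters on the same array, the receptor median stood at -0.47, -0.43 and -0.44 on the CREB-KO arrays, against -0.44, -0.52 and -0.52 on the CREB-WT arrays. On that scale the groups overlapped, since CREB-KO replicate 1 lay below CREB-WT replicate 1, and the difference was 0.048. Of the 1227 receptors, 67.2% had a positive difference, against 60.4% of all clusters, and the median difference was 0.089, against 0.049. The cause of this shift was not tested.

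Other families of chemosensory receptors stood at about the same level. The median signal over the family was 4.02 for 186 Vmn1r clusters and 3.98 for 116 Vmn2r clusters, both vomeronasal pheromone receptors, 3.98 for 38 taste receptors (Tas1r and Tas2r) and 4.21 for 16 trace amine receptors (Taar), beside 4.06 for the olfactory receptors. The Vmn2r medians ran from 4.01 to 4.07 in CREB-KO and from 3.93 to 3.96 in CREB-WT, without overlap. The medians of Vmn1r, the taste receptors and Taar overlapped between groups. The difference between group means of the medians was 0.086 for Vmn1r, 0.096 for Vmn2r, 0.025 for the taste receptors and 0.12 for Taar.

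Most receptors never reached the median of an array. On none of the 6 arrays did 743 members (60.6%) lie above the median of all clusters, while 373 did so on 1 to 5 arrays and 111 (9.05%) on all 6. Of all clusters, 40.5% lay above it on no array and 42.1% on all 6 arrays. A mean signal above 5 was reached by 72 members (5.87%), against 40.6% of all clusters, above 6 by 15, and above 7 by 3. Over the 1227 members, which share the arrays and their processing, any 2 arrays correlated at 0.827 to 0.867, and at 0.695 to 0.770 over the 1155 members with a mean under 5. The points of such a correlation also share the probes of each cluster. The spread within groups had a median SD of 0.23 for the receptors and 0.22 for all clusters, which lie at other signals. At matched signals it was larger for the receptors from 3.5 to 4 (0.225, against 0.177) and from 4 to 4.5 (0.225, against 0.190). It was smaller from 5 to 6 (0.256, against 0.287). Above 6 it was 0.213, against 0.310, but signals there were not matched. Only 3 of the 15 receptors above 6 exceeded 7, while 14909 of 19641 clusters did.

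**Figure D2:**
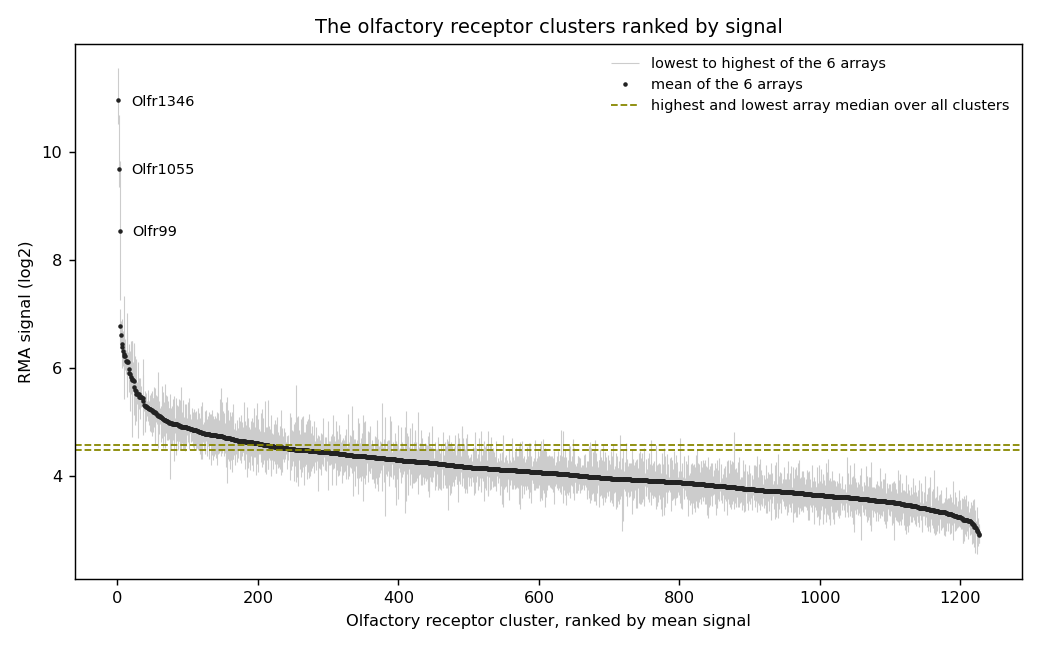
Mean RMA signal (log2) of each olfactory receptor cluster over the 6 arrays, ranked from highest to lowest, with the lowest and highest array as a grey line; dashed lines mark the highest and lowest median of all clusters on an array, 4.58 and 4.48. After 3 receptors above 7 the curve drops to 6.78 and then falls slowly to 2.92.

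Olfr1346, a class II receptor of family MOR103 on chromosome 7 (cluster TC0700000082.mm.1), had the highest signal. It was 10.82, 10.95 and 11.55 on the CREB-KO arrays, against 10.76, 11.15 and 10.52 on the CREB-WT arrays. The groups overlapped, and the difference was 0.30 ± 0.25 (SE; adjusted p = 0.931 in limma). The nearest measured genes beyond the adjoining receptors and unmeasured genes were at 5.20 (Zfp28) and 3.58 (Zim2) on average.

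Olfr1055, of family MOR186 on chromosome 2 (cluster TC0200003930.mm.1), came next. Its signals were 9.52, 9.79 and 9.35 on the CREB-KO arrays, against 10.69, 9.39 and 9.42 on the CREB-WT arrays. CREB-WT replicate 1 stood apart, and the difference of -0.28 ± 0.37 (adjusted p = 0.958 in limma) was smaller than the spread. Without that array it was 0.14. The nearest measured genes beyond the adjoining receptors and unmeasured genes, Gm13719 and the more distant Gm13733, averaged 3.92 and 4.16.

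The third, Olfr99, is described with the differences between groups. Below it came Olfr484, a receptor of family MOR204, with 6.69, 7.09 and 6.84 on the CREB-KO arrays, against 6.89, 6.72 and 6.46 on the CREB-WT arrays. The remaining 8 of the 12 highest, Olfr1015, Olfr328, Olfr1381, Olfr512, Olfr1353, Olfr756-ps1, Olfr1371 and Olfr545, averaged from 6.14 (Olfr545) to 6.62 (Olfr1015). Olfr1381 and Olfr1371 both belong to family MOR256 on chromosome 11. Of the 51 members of that family, 7 (13.7%), Olfr1381 and Olfr1371 among them, lay above the array median on all 6 arrays, against 9.05% of all members. The family was looked at because of Olfr1381 and Olfr1371, so this share is not a separate result.

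Among these 8, the groups were apart only for Olfr545, a class I receptor of family MOR42. It was 6.24, 6.31 and 6.33 on the CREB-KO arrays, against 5.89, 6.12 and 5.94 on the CREB-WT arrays. The difference of 0.31 ± 0.12 did not reach 1.5-fold (adjusted p = 0.873 in limma). Olfr756-ps1, a pseudogene, varied most, with 5.42, 7.34 and 6.40 on the CREB-KO arrays, against 5.84, 5.74 and 6.62 on the CREB-WT arrays.

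Receptors with known odorants or roles outside the nose were mostly at background. Of 11 such receptors 9 had a cluster of their own, and 8 of these lay above the array median on no array. Olfr2, an octanal receptor, averaged 3.53, Olfr73, which responds to eugenol, 3.91, Olfr151, the acetophenone receptor M71, 3.58, Olfr17, known as P2, 3.902, and Olfr1440, which responds to muscone, 3.82. Olfr558, a receptor for short-chain fatty acids, averaged 3.12, and Olfr1393, described in the kidney, 4.31. Their values overlapped between groups.

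Olfr16, known as MOR23 and also described in sperm, was 3.798, 3.89 and 3.94 on the CREB-KO arrays, against 3.67, 3.45 and 3.51 on the CREB-WT arrays. The groups did not overlap, but all 6 values lay below the median of their arrays, and the difference was 0.33 ± 0.12 (adjusted p = 0.873 in limma). The exception in level was Olfr544, a receptor for azelaic acid described in adipose tissue, which lies beside Olfr545. It was 6.03, 6.19 and 6.30 on the CREB-KO arrays, against 5.88, 6.15 and 6.15 on the CREB-WT arrays, and the groups overlapped. The nearest measured genes beyond the receptors and unmeasured genes around the pair were Rrm1 and Trim21. Rrm1, a ribonucleotide reductase subunit, averaged 9.84 and Trim21, a ubiquitin ligase, 10.2.

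Few receptors passed the thresholds with which the study called regulated transcripts, a fold of at least 1.5 and an unadjusted p under 0.05. In limma 9 members were higher on the CREB-KO arrays, where 1.62% of all clusters were, and 1 was lower, where 0.728% of all clusters were. Together these 10 are 0.815% of the members, against 2.35% of all clusters. An unadjusted p under 0.05 was found for 66 members (5.38%), against 5.59% of all clusters. No member passed an adjusted p of 0.05 over all clusters in limma, and the smallest adjusted p among them was 0.644. Under the methods' own test, named next, 3642 of all 65956 clusters had an unadjusted p under 0.05. Of all clusters, 642 were past both thresholds as higher under it and 246 as lower. With the methods' t-test 4 members passed as higher and 0 as lower, 59 had an unadjusted p under 0.05, and none passed after adjustment.

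The split by direction moved with the scaling. With each array centred on the median of all clusters, 7 members were higher and 1 lower (798 and 677 of all clusters), and with quantile normalization 6 and 2 (875 and 607). With each array centred on the median of the receptors it was 6 and 5 (645 and 906). As deposited, 1067 of all clusters were higher and 480 lower. Leaving out CREB-KO replicate 1, 2 or 3 gave 21, 13 and 15 members higher and 0, 2 and 2 lower. Of all clusters, 1618, 1053 and 1469 were then higher and 838, 683 and 517 lower. Leaving out CREB-WT replicate 1, 2 or 3 gave 18, 21 and 12 members higher and 2, 3 and 4 lower. Of all clusters, 969, 1428 and 1383 were then higher and 679, 650 and 718 lower. RNA from fewer cells of a type and less RNA per cell cannot be told apart in these sorted samples. All 8 macrophage and monocyte markers were lower on average on the CREB-KO arrays and 0 passed the thresholds. Their mean level ran from 5.83 to 8.42 in CREB-KO and from 7.28 to 9.11 in CREB-WT, and its part in these counts was not tested.

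The groups did not overlap for 119 members with CREB-KO above (9.70%), where the same was true of 7.87% of all clusters, and for 31 with CREB-KO below (2.53%), where it was true of 3.29%. Calls were more frequent at higher signals, among the members as among all clusters. With a mean from 4.5 to 5 the share past the thresholds was 2.26% of 177 members and 2.05% of 6490 clusters, and from 5 to 6 it was 3.51% of 57 and 3.29% of 7165. At 3.5 to 4 it was 0.224% of 446 members, against 0.654% of 14535 clusters, and below 3.5 it was 0 of 117, against 0.312% of 6087 clusters. The other families counted 3 higher and 0 lower of 186 for Vmn1r, and none for Vmn2r, the taste receptors or Taar.

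**Figure D3:**
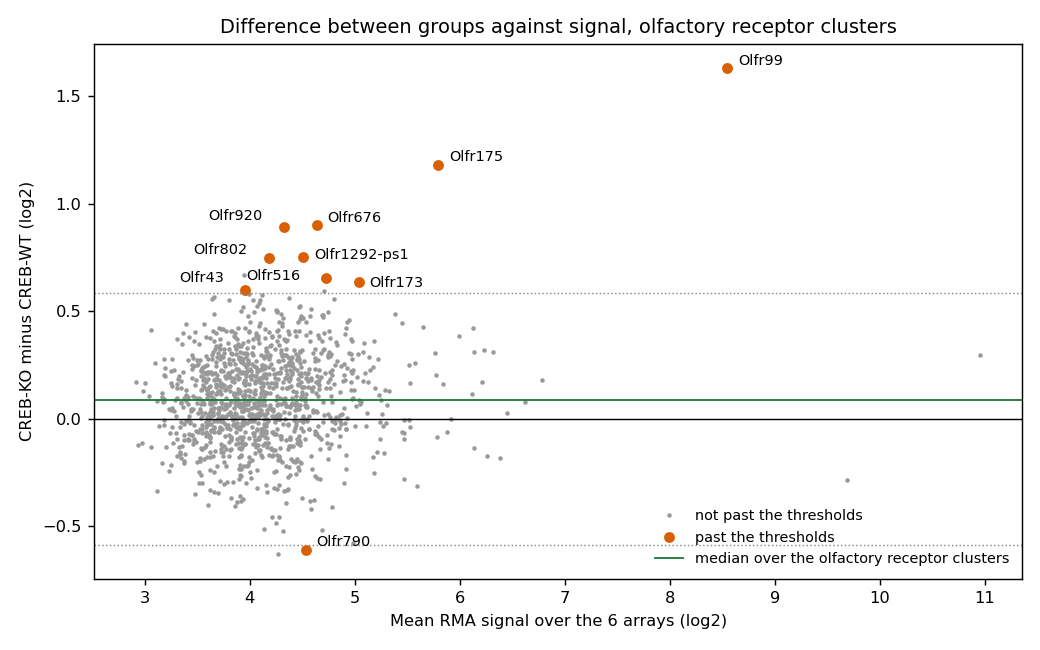
Difference between CREB-KO and CREB-WT (log2, positive where CREB-KO was higher) against the mean RMA signal of the 1227 olfactory receptor clusters; filled orange points passed both thresholds, dotted lines mark 1.5-fold and the green line the median difference of 0.089. Olfr99 and Olfr175 lie apart from the cloud, and most of the other called receptors have a mean signal between 3.9 and 5.

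Olfr99, of family MOR156 on chromosome 17 (cluster TC1700002063.mm.1), had the largest difference. Its signals were 9.84, 9.52 and 8.72 on the CREB-KO arrays, against 7.73, 7.25 and 8.21 on the CREB-WT arrays. All 3 CREB-KO arrays were above all 3 CREB-WT arrays. The difference was 1.63 ± 0.36 (SE, unadjusted p = 0.00341, adjusted p = 0.671 in limma). The call held in all 12 alternatives checked gene by gene, with values from 1.39 to 1.95. A filter on low signals and 1 cluster per gene were not among these 12.

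Olfr175, of family MOR184 on chromosome 16 (cluster TC1600001781.mm.1), was 6.29, 6.50 and 6.37 on the CREB-KO arrays, against 5.74, 5.15 and 4.72 on the CREB-WT arrays. The CREB-KO values were close together and all above the CREB-WT values. The difference was 1.18 ± 0.26 (adjusted p = 0.671 in limma). Under the same 12 alternatives it stayed past the thresholds, between 0.94 and 1.45.

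Olfr676, a class I receptor of family MOR32 on chromosome 7, was 4.75, 5.27 and 5.24 on the CREB-KO arrays, against 4.35, 4.24 and 3.98 on the CREB-WT arrays. It crossed the array median, lying above it on the CREB-KO arrays and below it on the CREB-WT arrays. The difference of 0.90 ± 0.19 (adjusted p = 0.671 in limma) also stayed past the thresholds in all 12 alternatives, between 0.79 and 1.07.

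Olfr516, of family MOR268 on chromosome 7, had the smallest p of the members. It was 4.95, 5.18 and 5.02 on the CREB-KO arrays, against 4.42, 4.37 and 4.398 on the CREB-WT arrays. It too lay above the median of every CREB-KO array and of no CREB-WT array. The difference of 0.65 ± 0.11 (unadjusted p = 0.00101, adjusted p = 0.644 in limma) fell short of 1.5-fold with arrays centred on the receptors (0.54) and with quantile normalization (0.58).

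The other calls were at low signals. Olfr920 was 5.10, 4.38 and 4.84 on the CREB-KO arrays, against 4.40, 3.98 and 3.27 on the CREB-WT arrays, and the groups overlapped. Olfr802 was 4.79, 4.78 and 4.098 on the CREB-KO arrays, against 3.77, 4.13 and 3.53 on the CREB-WT arrays, also with overlap. Olfr1292-ps1, a pseudogene, was 4.38, 5.16 and 5.10 on the CREB-KO arrays, against 4.12, 4.34 and 3.93 on the CREB-WT arrays. Olfr920 and Olfr802 each lost the call in 5 of 12 alternatives and Olfr1292-ps1 in 4, the methods' t-test among them for all 3. For Olfr920 the others were CREB-KO replicates 1 and 3 (0.73 and 0.86 without them) and CREB-WT replicates 2 and 3 (0.94 and 0.59). For Olfr802 they were CREB-KO replicates 1 and 2 (0.63 and 0.64) and CREB-WT replicates 1 and 3 (0.73 and 0.61), and for Olfr1292-ps1 CREB-KO replicates 2 and 3 (0.61 and 0.64) and CREB-WT replicate 3 (0.65).

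Olfr43, named although it was the smallest of the 9, was 4.14, 3.85 and 4.77 on the CREB-KO arrays, against 3.58, 3.72 and 3.65 on the CREB-WT arrays. Its difference of 0.60 ± 0.24 kept the call in 3 of 12 alternatives, and of single arrays only CREB-KO replicate 2 could be left out; it was 0.34 without CREB-KO replicate 3. Olfr790, of family MOR112 on chromosome 10, was the 1 lower receptor. It was 4.02, 4.42 and 4.24 on the CREB-KO arrays, against 4.75, 4.52 and 5.23 on the CREB-WT arrays, without overlap. The difference was -0.61 ± 0.21 (adjusted p = 0.873 in limma), and the call ended in 4 of 12 alternatives: the methods' t-test and without CREB-KO replicate 1 (-0.51), CREB-KO replicate 3 (-0.62) or CREB-WT replicate 3 (-0.41).

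**Figure D4:**
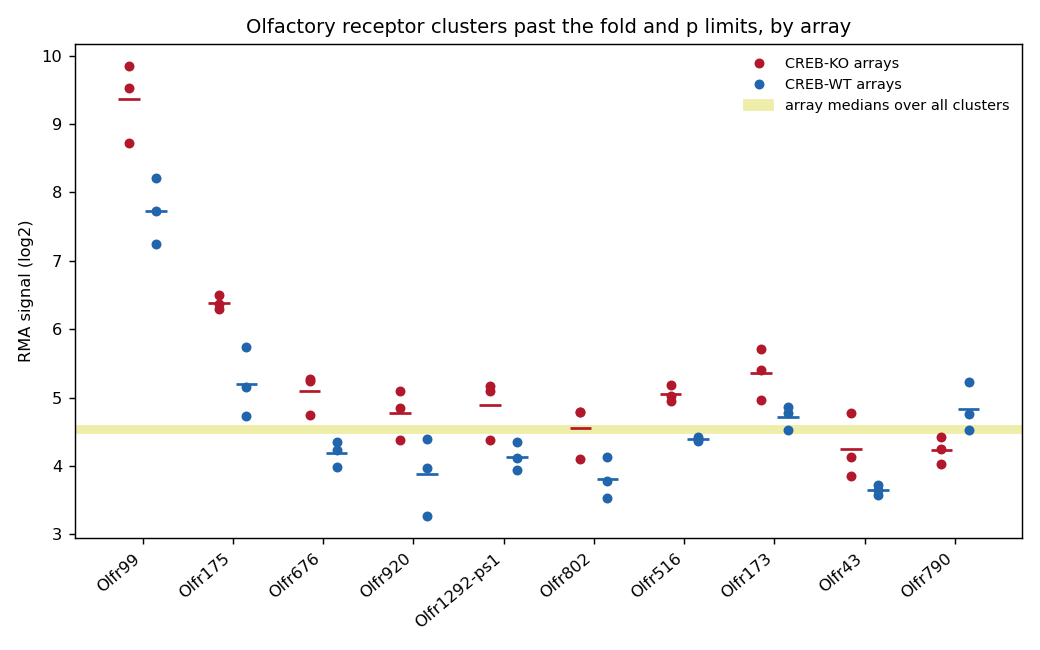
RMA signal (log2) of the 10 olfactory receptor clusters past the thresholds on each array, CREB-KO in red to the left and CREB-WT in blue to the right of each gene, with the group mean as a bar; the yellow band spans the medians of all clusters, 4.48 to 4.58. Olfr99 and Olfr175 lie above the band on all 6 arrays, while most of the others straddle it.

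Olfr175 and Olfr173 stand in a run of genes on chromosome 16 that was looked at after their values were seen. In RefSeq order the run begins with Gpr15, a G protein-coupled receptor that directs T cells to the colon, then Cldnd1, a claudin-like membrane protein, and Gm26019, followed by Olfr172, Olfr173, Olfr175 and further MOR184 receptors. Gpr15 was 9.68, 10.06 and 10.64 on the CREB-KO arrays, against 9.16, 8.56 and 8.79 on the CREB-WT arrays. It differed by 1.29 ± 0.28 (adjusted p = 0.671 in limma). Cldnd1 was higher as well, by 1.02 ± 0.35. Both were past the thresholds, Gpr15 in all 12 alternatives and Cldnd1 in 8. The call for Cldnd1 ended with the methods' t-test and without CREB-KO replicate 2 (0.98), CREB-KO replicate 3 (0.77) or CREB-WT replicate 1 (0.74).

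Olfr173 was 5.71, 4.96 and 5.40 on the CREB-KO arrays, against 4.85, 4.78 and 4.53 on the CREB-WT arrays. The groups were just apart, and the difference of 0.64 ± 0.21 kept the call in 5 of 12 alternatives. It ended without CREB-KO replicate 1 (0.46), CREB-KO replicate 3 (0.62) or CREB-WT replicate 3 (0.54), with the methods' t-test and in the 3 other scalings (0.53 to 0.58). Olfr172 was above the array median on all 6 arrays, with 5.66, 5.48 and 6.46 on the CREB-KO arrays, against 5.16, 5.90 and 5.26 on the CREB-WT arrays, and the groups overlapped. The next receptors, Olfr177, Olfr178 and Olfr180, were back at background with group means between 3.60 and 3.94. Olfr181, which follows them, was 3.999, 4.998 and 5.04 on the CREB-KO arrays, against 4.29, 4.47 and 4.04 on the CREB-WT arrays. It lay above the array median only on CREB-KO replicates 2 and 3. Its groups overlapped, and the difference of 0.41 ± 0.30 was not past the thresholds. Of the 8 members of family MOR184, 3 lay above the array median on all 6 arrays, against 9.05% of all members. These were Olfr172, Olfr173 and Olfr175, and the median difference of the family was 0.33. The family was looked at because of these receptors, so its count and median are not a separate result.

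Olfr99 stands in another run, on chromosome 17. Its neighbour H2-M3, a class Ib MHC gene, was 11.91, 11.76 and 11.81 on the CREB-KO arrays, against 12.88, 11.80 and 12.08 on the CREB-WT arrays, with overlap and a difference of -0.43, which passed the thresholds only without CREB-WT replicate 2 (-0.66). Between them lies Olfr755-ps1, at 5.44 in CREB-KO and 5.75 in CREB-WT. Olfr756-ps1, on the other side, is the tenth in signal, and Olfr98 averaged 5.34 in CREB-KO and 5.27 in CREB-WT. In this run Olfr99 was the only gene past the thresholds.

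**Figure D5:**
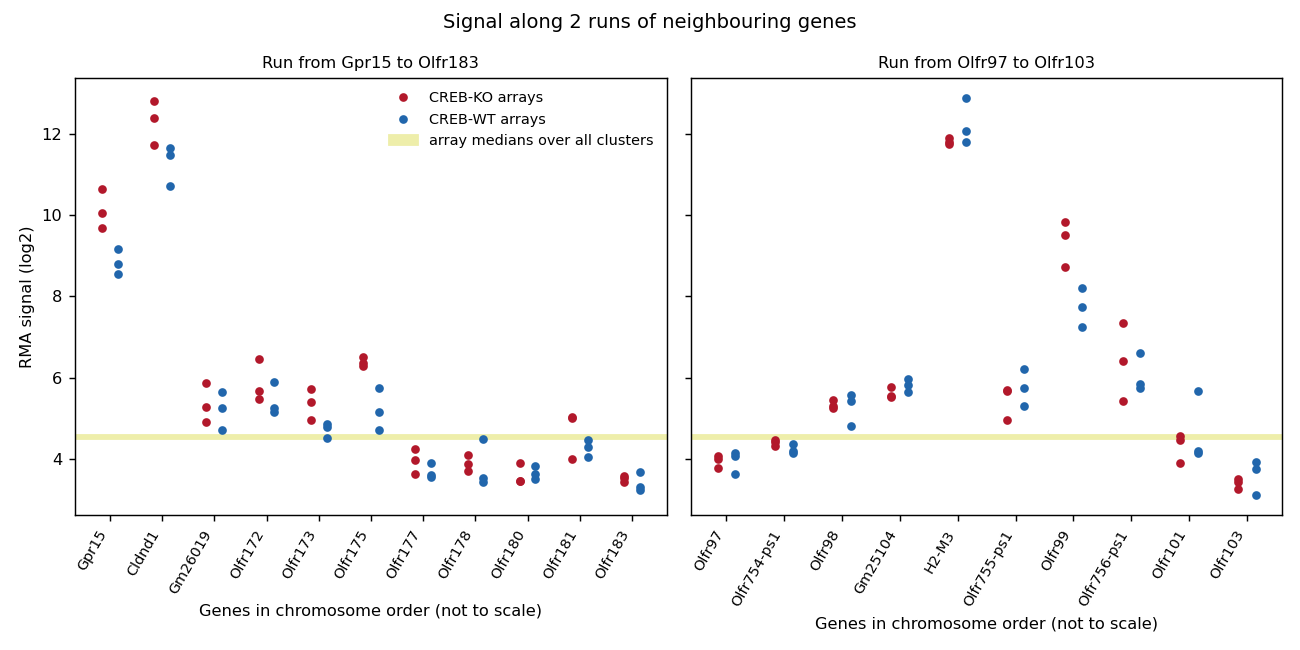
RMA signal (log2) on each array along both runs of neighbouring genes in chromosome order, not to scale, with CREB-KO in red to the left and CREB-WT in blue to the right of each gene and the medians of all clusters as a yellow band. Gpr15, Cldnd1, Olfr173 and Olfr175 are higher in CREB-KO on the left, and Olfr99 on the right, while H2-M3 overlaps.

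Receptors beside a gene of high signal did not stand out in level. Of 46 members whose immediate neighbour in RefSeq order was another kind of gene with a mean signal above 8, 5 (10.9%) lay above the array median on all 6 arrays, against 84 of 960 (8.75%) that stood among receptors or unmeasured genes. The highest mean in the first set was 5.59, and Olfr1346, Olfr1055 and Olfr99 were not in it.

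Class and the chromosomes with the most members separated the receptors little in median signal. The median signal was 4.05 for 142 class I and 4.07 for 1035 class II receptors, and 16 (11.3%) and 89 (8.599%) lay above the array median on all 6 arrays. Pseudogene symbols had a median of 4.08, with 14 of 141 above it on all 6 arrays, and the other symbols 4.05, with 97 of 1086. Chromosomes 2, 7 and 9, which hold the most members (339, 257 and 139), had medians of 4.05, 4.04 and 4.07. On chromosomes 16 and 17, 16.7% of 36 and of 60 members lay above the array median on all 6 arrays. The share was 2.94% of 68 members on chromosome 10 and 5% of 40 on chromosome 14. Whether chromosomes differ in this share was not tested. The median difference was positive for 16 of the 18 chromosomes with members. Over all clusters it was positive as well (0.049), so the chromosomes do not count as separate observations of direction.

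The symbols with 2 clusters showed how far probes of the same receptor gene can differ. For Olfr804 the clusters averaged 4.64 and 3.396, for Olfr446 4.498 and 4.24, and for Olfr1502 5.18 and 5.05. None of the 6 passed the thresholds.

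The machinery that serves these receptors in the nose lay in part above the array median. Of 30 genes of odorant signalling and receptor expression, 13 lay above it on all 6 arrays and 15 on none. Of all clusters, 42.1% lay above it on all 6 arrays and 40.5% on none, so the list is not set apart by these counts. None of its genes passed the thresholds. Among those well above the receptors were genes with general roles: Lbr, the lamin B receptor of the nuclear envelope, averaged 11.2, Ldb1, a partner of LIM factors, 10.99, and Kdm1a, a histone demethylase, 10.5. Adcy3 was 6.81, 6.74 and 6.98 on the CREB-KO arrays, against 6.64, 7.05 and 7.23 on the CREB-WT arrays, and Gnal averaged 4.96 in both groups. Cnga2, Rtp1, a chaperone that brings receptors to the cell surface, and Lhx2, a transcription factor needed for receptor expression in sensory neurons, averaged 3.63, 2.93 and 4.04.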

How the data were processed

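The values are RMA signals that the authors deposited, read as log2, 1 per transcript cluster and array (Affymetrix Expression Console per the methods; version and genome build not given in the sources used here). RMA corrects background, normalizes arrays to each other and summarises probes. The scale was taken as log2 because RMA gives log2 values. The 65956 clusters ran from 1.52 to 19.93, and 1082 of them, none a member, exceeded 16 on at least 1 array, the log2 ceiling of a 16-bit scanner, for which the sources used here give no reason. The sources name different array types and input amounts. RefSeq (GRCm38.p6) matched 1225 of 1227 members and served for names, MOR families and gene order. CREB-KO was compared with CREB-WT on the deposited values, with no filter, by limma 3.58.1 in R 4.3.3 (lmFit, eBayes, two-sided), with Benjamini-Hochberg adjustment over all clusters, and tested on simulated data. With 3 arrays a group, an exact permutation test reaches 0.1 at the least. Arrays limit the precision by their number; the spread shown is between animals. Named receptors were the 12 highest signals, up to 8 past the thresholds each way, the smallest p and a list of well-studied receptors; Olfr43, Olfr172 and the neighbouring genes were added after their values were seen. The members and lists were chosen with earlier results of these data known. Alternatives were arrays left out, a replicate block, the methods' t-test, an intensity trend, other scalings, a filter on low signals and other memberships.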

Additional observations from a re-analysis of the deposited data

How the results depend on the processing

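Near background, array signals carry little information on differences, and 3 arrays a group limit every count. The replicate numbers in the titles were not taken as pairs in the main comparison. Over all clusters the deviations of same-numbered arrays correlated at 0.22, 0.018 and 0.041. For arrays with different numbers the values ran from -0.19 to 0.18. With 3 arrays a group, these values cannot decide whether same-numbered arrays share a batch. With the replicate number as a block, 10 receptors passed the study thresholds as higher and 2 as lower, and 1349 and 688 of all clusters. The methods' t-test gave 4 receptors higher and 0 lower, and 642 and 246 of all clusters. Centring on the receptors gave 6 and 5 receptors, and 645 and 906 of all clusters. Quantile normalization gave 2 lower receptors. Among the 32978 clusters above the median level, 5 of 240 receptors were higher and 1 lower, and 815 and 394 of these clusters. With 1 cluster per gene 276 of all clusters were higher and 201 lower, over the 30176 genes then tested. Leaving out 1 array gave 12 (without CREB-WT replicate 3) to 21 receptors higher (with CREB-KO replicate 1 left out, and likewise with CREB-WT replicate 2) and 0 (without CREB-KO replicate 1) to 4 lower (without CREB-WT replicate 3), and over all clusters 969 to 1618 higher and 517 to 838 lower, the highest of both without CREB-KO replicate 1. The difference of the receptor medians was 0.048 with arrays centred on all clusters and 0.046 after quantile normalization, and 0.093 to 0.13 on leaving out an array. Against the median of clusters with 1 symbol, 57 receptors lay above it on all 6 arrays in place of 111. The causes of these shifts were not tested.

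Of the 12 named differences past the thresholds none reversed in the 12 alternatives, and 4 (Olfr99, Olfr175, Olfr676 and Gpr15) kept the call in all. Of 22 others, 9 changed sign in at least 1 alternative. The 12 are those past the thresholds on these same arrays, so that they kept their sign is not a separate result. With arrays centred on the receptors Olfr1015 differed by -0.031, Olfr328 by -0.084, Olfr73 by -0.036 and Olfr558 by -0.027, and Olfr328 by -0.037 centred on all clusters and by -0.0079 after quantile normalization. On leaving out 1 array the ranges were -0.028 to 0.17 for Olfr1015, -0.068 to 0.13 for Olfr328, -0.503 to 0.14 for Olfr1055, -0.36 to 0.041 for Olfr1381, -0.16 to 0.81 for Olfr756-ps1, -0.067 to 0.26 for Olfr73, -0.27 to 0.089 for Olfr1440, -0.21 to 0.062 for Olfr151 and -0.020 to 0.22 for Olfr558.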

Other observations

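Another 29 clusters were annotated with more than 1 symbol entry, at least 1 of them an olfactory receptor (for 1 cluster the same symbol, Olfr1434, stood there 2 times). They were not counted as members above, though they are among all clusters. With those that hold receptor symbols only added to the members, 9 were higher, 1 was lower and 115 lay above the array median on all 6 arrays. Their mean signals ran from 3.34 to 5.90 with a median of 4.19, 6 lay above the array median on all 6 arrays, and 0 were past the study thresholds in limma. The highest was the cluster shared by Ifi47, an interferon-induced GTPase, and Olfr56, at 5.60, 6.15 and 6.09 on the CREB-KO arrays, against 5.89, 5.79 and 5.90 on the CREB-WT arrays. Among receptors known for a role outside the nose, Olfr78, described in blood pressure control and the carotid body, shares its cluster with Olfr560. That cluster was 3.88, 3.85 and 3.83 on the CREB-KO arrays, against 3.67, 3.73 and 3.59 on the CREB-WT arrays. The groups were apart, and all 6 values lay below the median of their arrays.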
